A study of Mus musculus with 15 samples.

Results

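The 42 genes described here are 32 interferon-stimulated genes and 10 genes of MHC class I antigen presentation, taken by symbol from a table of 24346 genes measured while mouse astrocytes were turned into neuron-like cells with chemicals. All 42 symbols had a row, and 38 passed the low-value filter and were tested, namely the 10 presentation genes and 28 interferon-stimulated genes. The study's 15 libraries came from brain cells of C57BL/6 mice, with no other allele or treatment named in the labels. They fall into chemically induced neurons on day 4 (D4), day 8 (D8) and day 16 (D16), primary neurons (PN), and astrocytes on day 0 (D0), with 3 libraries in each group. Total RNA was sequenced, and expression is given as FPKM, fragments scaled to transcript length and to the library's total, which allows levels to be compared between genes. The labels name neither the chemicals nor whether the libraries of a group came from separate animals or cultures, so p-values measure the spread between these libraries, which may be technical.

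Interferons signal through cell surface receptors to STAT and IRF transcription factors, which switch on a broad set of antiviral genes through short promoter elements such as the interferon-stimulated response element (ISRE). MHC class I molecules, made of a heavy chain and beta-2 microglobulin, display peptides that the proteasome has cut and the TAP transporter has carried into the endoplasmic reticulum, and interferon raises this pathway too. In the brain, astrocytes respond to interferon readily, whereas neurons are known for low levels of class I molecules.

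The cell type labels were checked against marker genes. Gfap, an astrocyte filament protein, had 11.9, 0.161 and 0.573 FPKM in the D16 libraries, against 465, 383 and 832 FPKM in the D0 libraries. Snap25, a synaptic vesicle fusion protein, had 168, 135 and 213 FPKM at D16 and 184, 283 and 118 FPKM in PN, but Dcx, a marker of young neurons, had 0.330, 0.209 and 0.414 FPKM at D16 against 115, 153 and 129.8 FPKM in PN, so that this defining neuronal marker was near 0 in the induced cells. FPKM totals ran from 548309 to 787080 per library, between 11861 and 12907 genes per library reached 1 FPKM, and the absolute depth is unknown. A total of 3 libraries stood apart for the genes described here. In PN replicate 3, 15 of the 38 tested genes (39.5%) were at least 1 FPKM and at least 2 times both other PN libraries, against 3.52% of all genes tested. The same held for 5 genes (13.2%, against 1.41% of all genes) in D8 replicate 1 and for 4 genes (10.5%, against 1.33%) in D16 replicate 1. In these bulk samples, fewer cells of a type and less RNA per cell cannot be told apart.

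Promoter sequences are shown for 4 interferon-stimulated genes and 3 class I chains, so that matches to strict element letters can be read beside their levels. They are RefSeq windows on GRCm38.p6, from 250 bases before to 50 after the gene start, which were at hand for 32 of the 42 genes. Capitals mark an ISRE core (GAAA and GAAA with any 2 bases between), a GAS element bound by STAT dimers (TTCNNNGAA, which in Ifitm3 and Bst2 overlaps an ISRE core) or a kB element of the class I enhancer (GGGATTCCC), all searched on both strands and the last chosen after the sequences were seen. Ifit3 lies at chr19:34583279-34583578 (plus strand), Ifitm3 at chr7:141010695-141010994 (minus), Gbp2 at chr3:142620413-142620712 (plus), Bst2 at chr8:71537423-71537722 (minus), B2m at chr2:122147437-122147736 (plus), H2-K1 at chr17:34000298-34000597 (minus) and H2-D1 at chr17:35262844-35263143 (plus).
Ifit3: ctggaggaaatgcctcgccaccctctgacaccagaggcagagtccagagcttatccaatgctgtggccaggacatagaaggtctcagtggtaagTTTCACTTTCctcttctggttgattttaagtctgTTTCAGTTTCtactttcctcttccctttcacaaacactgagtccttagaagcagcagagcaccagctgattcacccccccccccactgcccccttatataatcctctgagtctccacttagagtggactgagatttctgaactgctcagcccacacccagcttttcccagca
Ifitm3: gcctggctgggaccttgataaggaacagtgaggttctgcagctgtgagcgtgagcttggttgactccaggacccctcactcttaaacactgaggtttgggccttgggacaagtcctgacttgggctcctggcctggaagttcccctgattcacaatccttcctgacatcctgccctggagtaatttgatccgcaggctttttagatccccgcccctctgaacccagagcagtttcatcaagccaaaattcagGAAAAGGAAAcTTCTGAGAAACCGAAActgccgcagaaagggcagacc
Gbp2: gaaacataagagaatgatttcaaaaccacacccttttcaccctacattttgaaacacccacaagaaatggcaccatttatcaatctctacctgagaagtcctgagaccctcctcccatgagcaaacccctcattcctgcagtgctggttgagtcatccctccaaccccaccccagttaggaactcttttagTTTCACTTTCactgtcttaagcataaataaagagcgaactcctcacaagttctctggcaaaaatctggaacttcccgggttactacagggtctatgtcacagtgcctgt
Bst2: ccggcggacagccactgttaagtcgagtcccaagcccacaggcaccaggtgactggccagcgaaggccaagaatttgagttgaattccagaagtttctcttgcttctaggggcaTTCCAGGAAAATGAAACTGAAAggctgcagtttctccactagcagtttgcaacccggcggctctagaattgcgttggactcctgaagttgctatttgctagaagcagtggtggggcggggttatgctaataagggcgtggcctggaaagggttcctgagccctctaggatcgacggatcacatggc
B2m: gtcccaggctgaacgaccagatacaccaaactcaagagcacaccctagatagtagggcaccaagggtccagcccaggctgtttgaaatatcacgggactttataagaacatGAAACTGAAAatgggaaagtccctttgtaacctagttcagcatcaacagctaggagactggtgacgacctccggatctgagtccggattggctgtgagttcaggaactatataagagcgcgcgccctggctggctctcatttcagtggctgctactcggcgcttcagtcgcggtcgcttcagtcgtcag
H2-K1: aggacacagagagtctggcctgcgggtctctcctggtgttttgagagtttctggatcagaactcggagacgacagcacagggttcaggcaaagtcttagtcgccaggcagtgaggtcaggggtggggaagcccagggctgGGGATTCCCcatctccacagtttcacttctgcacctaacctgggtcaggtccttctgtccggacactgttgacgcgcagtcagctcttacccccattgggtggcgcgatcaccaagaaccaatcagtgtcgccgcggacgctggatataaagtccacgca
H2-D1: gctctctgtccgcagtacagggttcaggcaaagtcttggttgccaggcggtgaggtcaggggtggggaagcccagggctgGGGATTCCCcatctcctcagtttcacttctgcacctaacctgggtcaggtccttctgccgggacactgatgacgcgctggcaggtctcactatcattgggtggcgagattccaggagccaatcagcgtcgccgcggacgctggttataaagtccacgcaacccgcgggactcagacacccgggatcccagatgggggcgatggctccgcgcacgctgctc

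Ifit2, Irf1, Irf9, Gbp3 and H2-K1 have more than 1 window, and a gene was counted where any of its windows held the letters. The ISRE core was in the windows of 15 of 24 interferon-stimulated genes (62.5%) and of 1 of 8 presentation genes (12.5%), B2m, against 1079 of 27025 genes in all (3.99%). The GAS letters were found for 8 of the 32 genes (25.0%), against 9.55% of all genes. The kB letters were found for 3 of the 32 genes (9.38%), H2-K1, H2-D1 and Irf1, against 112 of 27025 genes in all (0.414%). These letters were chosen after the sequences were seen, so the difference from all genes is no test. The windows of H2-K1 and H2-D1 shown share an identical run of 47 bases that includes this element. A match of letters is a description of the window, not evidence that a factor binds there. Looser forms of the ISRE were not searched, so a window without a match may still hold an interferon element. The H2-K1 and H2-D1 windows both hold agtttcacttct after the kB letters, which the strict ISRE letters do not match.

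From D4 on, the class I heavy chains H2-D1 and H2-K1, B2m and Nlrc5 were higher than at D0. Of the 28 tested interferon-stimulated genes, 11 to 14 were lower. Other class I heavy chains, given further below, went in both directions. At D16 against D0, 5 of the 38 tested genes were called higher and 16 lower, where all genes tested were called in 16.6% and 18.7% of cases, and a call means an adjusted p below 0.05 in limma and a change of at least 1 on the log2(FPKM + 1) scale. Among the 10 presentation genes 4 were higher and 2 lower, with a median change of 0.49, and among the 28 interferon-stimulated genes 1 was higher and 14 lower, with a median of -1.01 (all genes tested, -0.01). At D4 against D0 the 38 genes split into 6 higher and 14 lower (background 13.6% and 14.2%), and at D8 against D0 into 4 higher and 14 lower (15.5% and 16.9%). PN had 0 higher and 25 lower than D0 (17.1% and 23.9%). At an unadjusted p below 0.05 limma also gave 0 higher. The shares given here are by the calling rule, and none was computed for an unadjusted p. At D16 against PN, 16 genes were higher and 3 lower (19.6% and 15%). Without the 3 libraries that stood apart, a setting chosen after seeing the data, 6 genes were higher and 19 lower at D16 against D0, 4 and 18 at D8 against D0, and 0 and 29 in PN against D0. In these 3 comparisons, all 13983 genes tested then gave 2381 higher and 2741 lower, 2152 and 2439, and 2505 and 3439. With all libraries they gave 2319 and 2616, 2164 and 2360, and 2391 and 3339. The level scale understates changes of weakly expressed genes, and the D0 libraries are shared by the D4, D8, D16 and PN comparisons. Ifit3, Gbp2, Parp14 and Xaf1 reached 1 FPKM in D0 libraries only, and Nlrc5 and Oas1a in libraries of induced cells only. These genes passed the low-value filter only through the groups where they were high. The filter thus favoured their direction, and the counts and medians above include them.

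**Figure D1:**
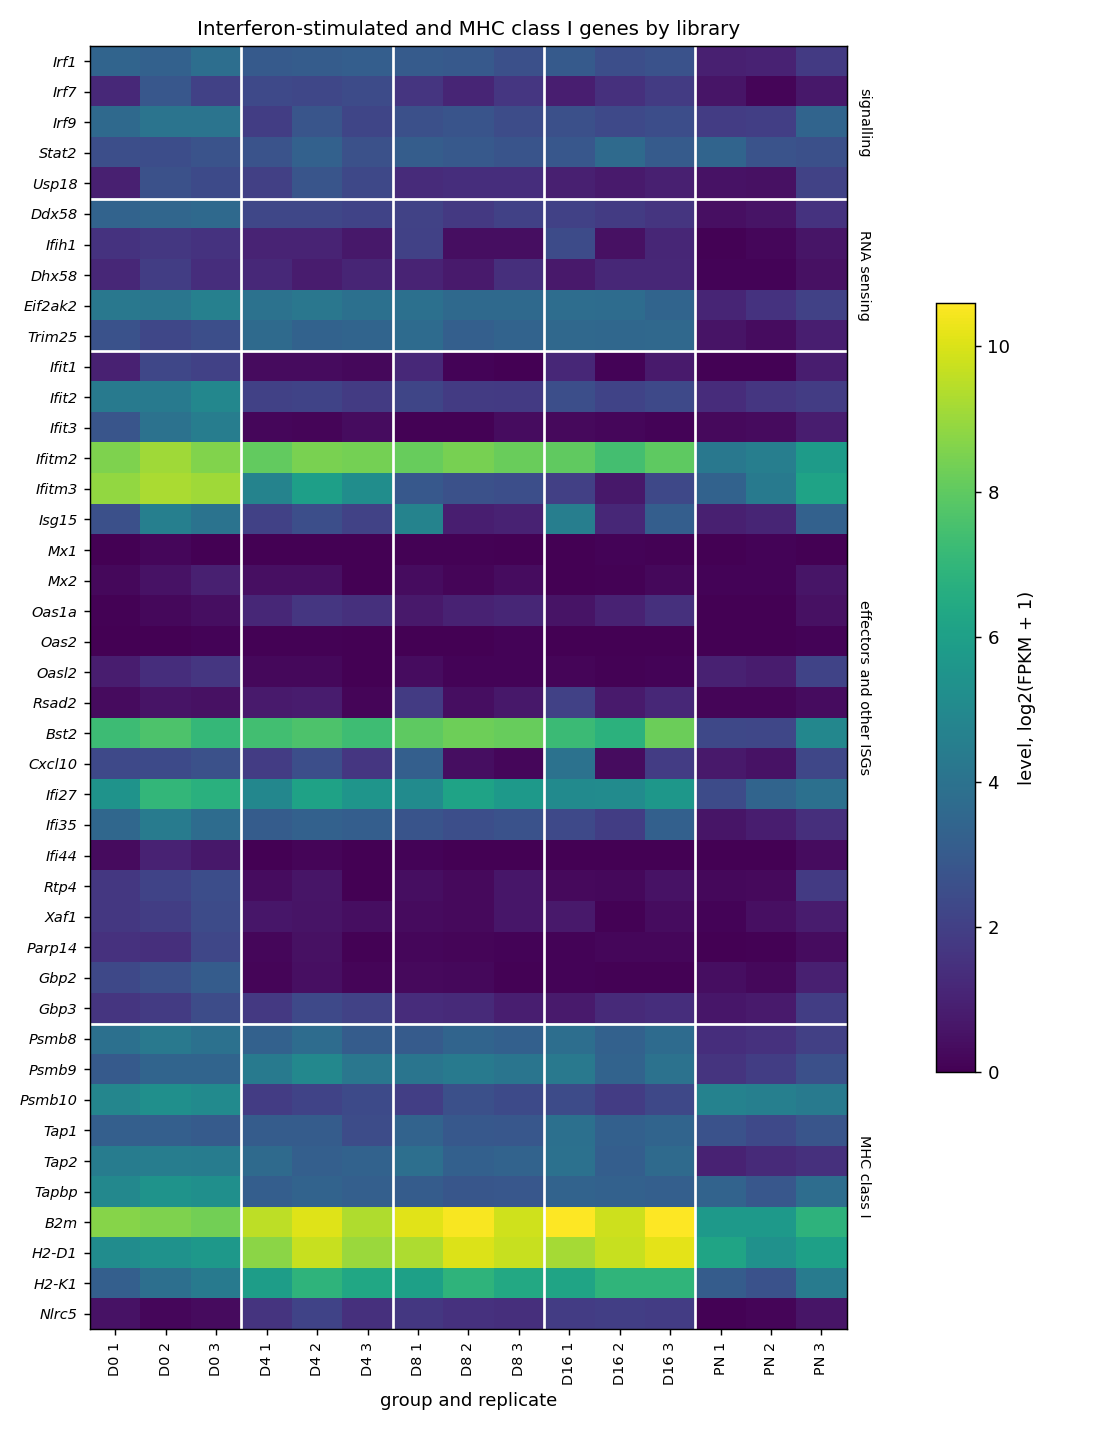
Level of all 42 genes in each of the 15 libraries, as log2(FPKM + 1), with white lines between groups and between roles. B2m, H2-D1 and H2-K1 are brighter at D4, D8 and D16 than at D0, while Ifitm3, Ifit3 and Psmb10 are darker there, and PN replicate 3 is brighter than the other PN libraries for many genes.

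Among the 10 presentation genes, the class I heavy chains H2-D1 and H2-K1, which present the peptide, rose most. H2-D1 (chr17:35262730-35267499, plus strand, GENCODE M21) had 577, 846 and 1145 FPKM in the D16 libraries, against 34.8, 41.6 and 49.5 FPKM in the D0 libraries. Every D16 library was above every D0 library, and the change was 4.28 ± 0.30 (log2 ± SE; adjusted p = 1.52e-08). The rise was already present at D4, where H2-D1 averaged 596 ± 213 FPKM (SD, n = 3), and at D8 the mean was 839.6 ± 214 FPKM. H2-K1 (chr17:33996017-34000347, minus strand) had 71.7, 123 and 122 FPKM at D16, against 8.28, 13.9 and 19.4 FPKM at D0, without overlap, a change of 2.87 ± 0.41 (adjusted p = 2.2e-05). Per length, H2-D1 stood 8.10 ± 1.23 times as high as H2-K1 at D16 and 3.25 ± 0.856 times at D0 (SD, n = 3 each), a ratio higher in every D16 library than in any D0 library. The PN libraries had ratios of 9.54, 7.51 and 3.18. Of the 75-base words of H2-D1 and H2-K1, 5.40% and 3.10% occur in other genes, mostly related heavy chains. The annotation used for this lacks H2-L, a row given further below, so words shared with it are not counted. The level of H2-D1 and its ratios to H2-K1 and B2m carry this limit.

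B2m (chr2:122147686-122153083, plus strand), the light chain shared by all class I molecules, had 1529, 895 and 1554 FPKM at D16, against 406, 369.6 and 321 FPKM at D0. The groups did not overlap, and the change was 1.82 ± 0.31 (adjusted p = 0.000122). H2-D1 and H2-K1 summed to 0.774 ± 0.331 of the B2m level at D16 and to 0.157 ± 0.0547 at D0 (SD, n = 3 each), with every D16 library above every D0 library. The PN libraries, at 1.55, 0.881 and 0.739, were above every D0 library as well. Nlrc5 (chr8:94434356-94527272, plus strand), a transactivator that is known for driving class I promoters, was weak but had 2.65, 2.89 and 2.70 FPKM at D16, against 0.420, 0.135 and 0.239 FPKM at D0. The groups did not overlap, and Nlrc5 rose by 1.57 ± 0.19 (adjusted p = 5.09e-06). The 4 calls held at D4 and D8 as well, except that the B2m call at D4 (1.15 ± 0.31) was lost without D4 replicate 2 (0.94) and the Nlrc5 call at D8 (1.21 ± 0.19) under quantile normalization.

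Markers of microglia and macrophages, cells rich in class I molecules, were read beside this rise. The 18 microglia and macrophage markers summed to 327 to 847 FPKM at D16, against 60.6 to 124 FPKM at D0. Of the 10 tested 3 were higher and 5 lower (all genes tested, 16.6% and 18.7%), with a median change of -1.02. Cd68, a lysosomal protein of macrophages, made up most of the mean sum at D16. It had 437 ± 267 FPKM at D16 and 17.5 ± 4.10 FPKM at D0. The defining markers Tyrobp and Cx3cr1 were listed at 0 in all D16 libraries, and Csf1r and Ptprc reached at most 0.0322 and 0.0531 FPKM there, while Tyrobp had 5.98, 0.597 and 9.58 FPKM at D0. Their part in the rise of class I genes was not tested.

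**Figure D2:**
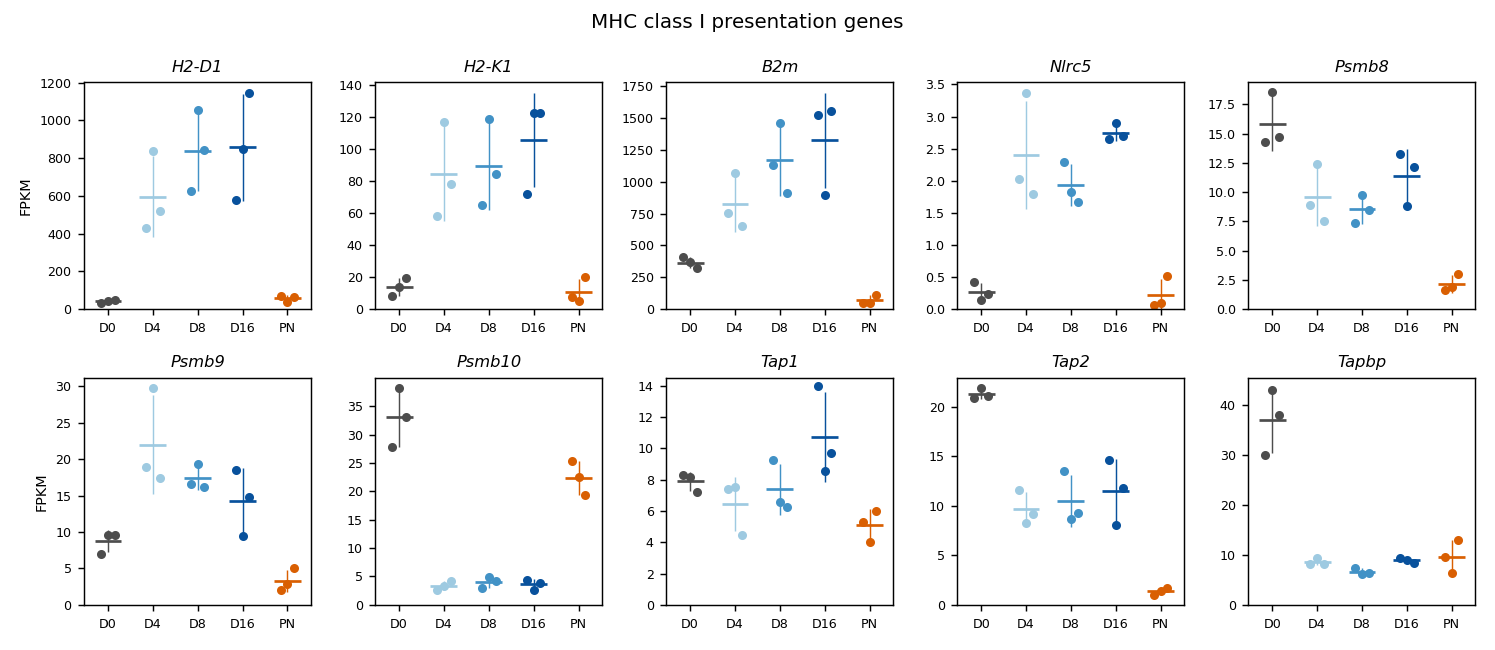
FPKM of the 10 MHC class I presentation genes in each library (points), with group means (horizontal lines) and SD (vertical lines, cut at 0), n = 3 per group. H2-D1, H2-K1, B2m and Nlrc5 are above D0 at D4, D8 and D16, while Psmb10 and Tapbp are below it.

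Of the 6 genes that supply and load peptides, 2 fell and 4 were not called at D16 against D0 (all genes tested, 18.7% lower). Psmb10, the inducible proteasome subunit that replaces Psmb7, had 4.36, 2.66 and 3.93 FPKM at D16, against 27.8, 38.1 and 33.1 FPKM at D0. The groups were far apart, and Psmb10 fell, with a change of -2.88 ± 0.21 (adjusted p = 1.8e-08); PN kept 25.3, 22.5 and 19.3 FPKM, not called against D0 (-0.54 ± 0.21, adjusted p = 0.0321, below the change minimum). Tapbp, the tapasin bridge between TAP and the empty class I molecule, had 9.36, 8.91 and 8.33 FPKM at D16, against 29.9, 42.9 and 37.8 FPKM at D0, and fell without overlap, with a change of -1.93 ± 0.20 (adjusted p = 7.92e-07). Of Tapbp exon bases, 24.9% overlap an antisense gene, and without stated strand counting their reads cannot be told apart.

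The other inducible subunits took different courses. Psmb8, which replaces Psmb5, had 13.3, 8.79 and 12.1 FPKM at D16, against 14.3, 18.5 and 14.7 FPKM at D0, without overlap but not called (-0.45 ± 0.22, adjusted p = 0.0812). Psmb9, which replaces Psmb6, was higher at D4, with 18.9, 29.7 and 17.4 FPKM against 7.03, 9.64 and 9.66 FPKM at D0 (1.21 ± 0.27, adjusted p = 0.00163; the call was lost without D4 replicate 2, 0.98). At D16 Psmb9 had 18.5, 9.41 and 14.8 FPKM, which overlapped with D0 and was not called (0.60 ± 0.27, adjusted p = 0.0655). Psmb9 and Tap1 lie head to head on chromosome 17 with overlapping 5′ ends and annotated starts 211 bases apart, and Tap1 had 6.46 ± 1.72 FPKM at D4 and 7.91 ± 0.605 FPKM at D0, not called (-0.28 ± 0.22, adjusted p = 0.296). Tap2, the other chain of the transporter, fell at D4 to 11.6, 8.23 and 9.19 FPKM, against 20.9, 21.8 and 21.1 FPKM at D0 (-1.07 ± 0.21, adjusted p = 0.000617), a call lost under quantile normalization and without D4 replicate 2 (-0.98). At D16 Tap2 had 14.6, 8.03 and 11.8 FPKM, below every D0 library, but its change of -0.87 ± 0.21 (adjusted p = 0.00235) was under the minimum. Exons of Psmb8, Tap2, Ifi35 and Rtp4 overlap other annotated genes over 13.9% to 16.8% of their bases, so their levels may hold reads of those genes.

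Set against its constitutive partner, each inducible subunit gave its own pattern. Psmb10 made up 1.55 ± 0.214% of the summed FPKM of Psmb10 and Psmb7 at D16, against 9.97 ± 0.631% at D0 (SD, n = 3 each). Psmb9 made up 7.70 ± 1.61% of the sum with Psmb6 at D16, against 3.98 ± 0.722% at D0. Psmb8 made up 10.6 ± 1.22% of the sum with Psmb5 at D16, against 7.44 ± 0.733% at D0, where Psmb5 itself fell (98.5 FPKM at D16, 199.9 FPKM at D0; -1.04 ± 0.23, adjusted p = 0.00105). In all 3 pairs the D16 libraries lay on the same side of every D0 library. In PN the shares of Psmb8 and Psmb9 were 1.15 ± 0.356% and 1.47 ± 0.456%, below every other library, whereas that of Psmb10 was 6.26 ± 1.21%.

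**Figure D3:**
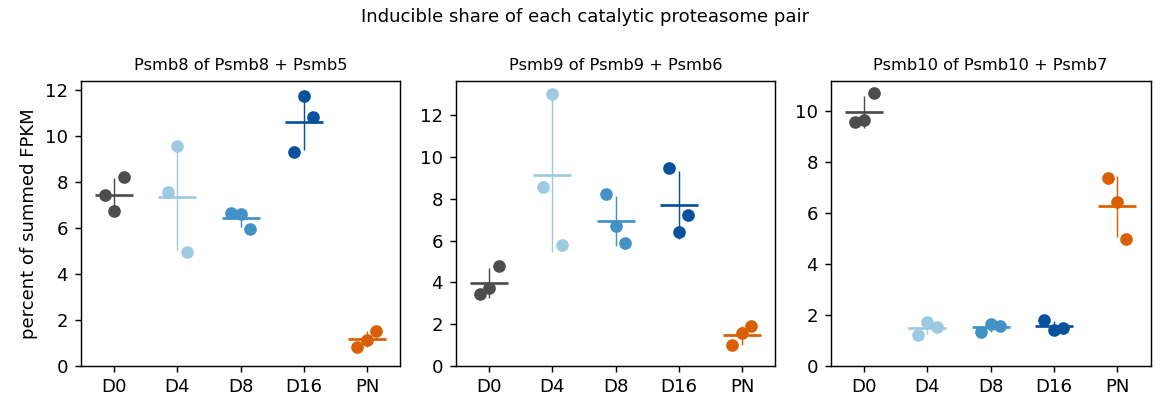
Share of the inducible subunit in the summed FPKM of each inducible and constitutive pair, in percent, per library (points) with group means and SD (lines), n = 3 per group. The Psmb10 share is under 2% in every D4, D8 and D16 library, while the Psmb8 and Psmb9 shares are lowest in PN.

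Most of the 18 tested antiviral effectors and other interferon-stimulated genes outside signalling and RNA sensing fell, with 11 lower, 0 higher and 7 not called at D16 against D0 (2 higher and 13 lower at an unadjusted p below 0.05 in limma). By the calling rule, the shares over all genes tested were 16.6% higher and 18.7% lower, and none was computed for an unadjusted p. Ifitm3, a membrane protein that blocks virus entry, changed most. It had 3.06, 0.610 and 3.93 FPKM at D16, against 468, 606 and 547 FPKM at D0. The groups were separated widely, and the change was -7.40 ± 0.55 (adjusted p = 2.64e-08). Its neighbour Ifitm2 (chr7:140954837-140955987, minus strand) kept 261, 172 and 254 FPKM at D16, against 371, 548 and 389 FPKM at D0, below every D0 library but under the minimum change (-0.93 ± 0.31, adjusted p = 0.0171). Of Ifitm2's 75-base words, 42% occur in other genes, so its level is uncertain. Astrocyte, fibroblast and oligodendrocyte markers fell beside these genes, as given with the marker lists.

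The Ifit genes, whose proteins bind viral RNA, fell together. Ifit3 had 0.200, 0.137 and 0.0671 FPKM at D16, against 6.02, 14.9 and 21.8 FPKM at D0, a change of -3.59 ± 0.31 (adjusted p = 1.27e-07), although 41.1% of its 75-base words are shared with Ifit3b. Ifit2 had 4.88, 3.37 and 4.04 FPKM at D16, against 19.1, 19.6 and 29.1 FPKM at D0 (-2.20 ± 0.20, adjusted p = 2.45e-07). Neither gene overlapped between the groups. Ifit1 had 1.24, 0.0666 and 0.686 FPKM at D16, against 0.956, 3.72 and 3.18 FPKM at D0, with overlap, and its call (-1.09 ± 0.38, adjusted p = 0.0208) was lost under 5 of 14 alternatives, among them leaving out D0 replicate 2 (-0.85), D0 replicate 3 (-0.93) or D16 replicate 2 (-0.80).

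Gbp2, an interferon-induced GTPase of host defence, had 0.0791, 0.0361 and 0.0531 FPKM at D16, against 3.90, 5.07 and 7.53 FPKM at D0 (-2.58 ± 0.21, adjusted p = 7.19e-08). Its relative Gbp3 had 1.24 ± 0.484 FPKM at D16 and 3.09 ± 1.30 FPKM at D0 and was under the minimum change (-0.84 ± 0.32, adjusted p = 0.0307). Rtp4, Xaf1, Parp14, Ifi35 and Oasl2 also fell, with D16 means of 0.274, 0.329, 0.111, 5.16 and 0.0857 FPKM, against 3.47, 3.15, 2.44, 14.4 and 1.52 FPKM at D0. Their changes ran from -1.78 for Rtp4 to -1.18 for Oasl2, the Oasl2 call being lost without D0 replicate 3 (-0.99). The Ifi27 call (-1.11 ± 0.43, adjusted p = 0.0366; 33.00, 33.9 and 48.3 FPKM at D16, 42.1, 128 and 104 FPKM at D0) overlapped between groups and was lost under 7 of 15 alternatives, among them leaving out D0 replicate 2 (-0.79), D0 replicate 3 (-0.94), D16 replicate 1 (-1.01) or D16 replicate 2 (-1.03).

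Bst2, or tetherin, which holds budding virus at the cell surface, also has ISRE cores in the window shown above. It had 150.2, 113 and 295 FPKM at D16, against 154, 201 and 132 FPKM at D0. The groups overlapped, and no change was called (0.09 ± 0.52, adjusted p = 0.888). Oas1a, a sensor enzyme that activates RNA decay, was higher at D4, with 1.27, 2.20 and 1.73 FPKM against 0.0535, 0.185 and 0.328 FPKM at D0 (1.20 ± 0.23, adjusted p = 0.00042), but 47.6% of its 75-base words are shared with Oas1g and the call was lost under quantile normalization. Mx1, Mx2, Oas2 and Ifi44 never passed the filter, with highest values of 0.143, 0.888, 0.0887 and 1.04 FPKM. Mx1 is known to be defective in C57BL/6 mice.

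**Figure D4:**
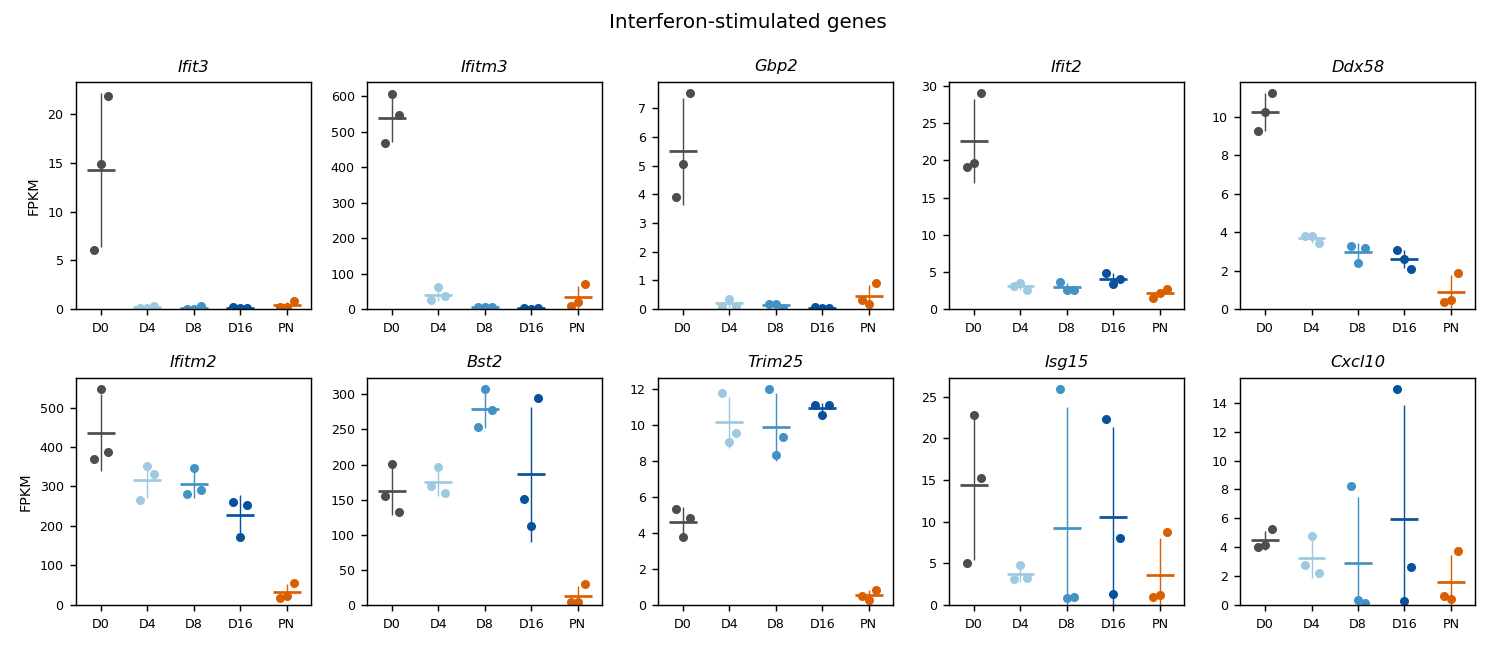
FPKM of 10 interferon-stimulated genes in each library (points), with group means (horizontal lines) and SD (vertical lines, cut at 0), n = 3 per group. Ifit3, Ifitm3, Gbp2, Ifit2 and Ddx58 are lower in every D4, D8 and D16 library than in any D0 library, Ifitm2 and Bst2 are low in PN, and Isg15 and Cxcl10 are high in replicate 1 at D8 and D16.

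The signalling factors fell in part. Irf9, the DNA-binding subunit of the factor that reads the ISRE, had 4.96, 4.03 and 4.73 FPKM at D16, against 11.3, 15.9 and 16.05 FPKM at D0, without overlap (-1.46 ± 0.33, adjusted p = 0.00142). Its partner Stat2 had 6.25, 11.8 and 7.18 FPKM at D16, against 4.77, 4.72 and 5.49 FPKM at D0, above every D0 library but under the minimum change (0.61 ± 0.25, adjusted p = 0.0476). Irf1, which also drives class I genes, had 5.69 ± 1.15 FPKM at D16 and 10.5 ± 2.41 FPKM at D0 (-0.78 ± 0.23, adjusted p = 0.00887), also under the minimum. Irf7, an amplifier of the type I response, was not called (-0.67 ± 0.34, adjusted p = 0.097). Usp18, a brake on the interferon receptor, had 0.917, 0.681 and 0.926 FPKM at D16, against 0.922, 5.14 and 4.17 FPKM at D0. The groups overlapped, and its call (-1.10 ± 0.42, adjusted p = 0.0338) was lost under 6 of 14 alternatives, among them leaving out D0 replicate 2 (-0.78), D0 replicate 3 (-0.90), D16 replicate 1 (-1.13), D16 replicate 2 (-1.03) or D16 replicate 3 (-1.13).

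Of the 5 genes of RNA sensing, 1 rose and 1 fell at D16 against D0, near the shares over all genes tested (16.6% and 18.7%). Ddx58, which encodes the RNA sensor RIG-I, had 3.09, 2.62 and 2.11 FPKM at D16, against 9.25, 10.3 and 11.2 FPKM at D0, and fell without overlap (-1.65 ± 0.24, adjusted p = 2.29e-05). Trim25, the ubiquitin ligase known for activating RIG-I, had 11.1, 10.5 and 11.1 FPKM at D16, against 5.30, 3.76 and 4.82 FPKM at D0, and rose without overlap (1.09 ± 0.18, adjusted p = 9.26e-05; the call was lost without D0 replicate 2, 0.97). It was the only interferon-stimulated gene of the 28 called higher at D16 with all libraries, and 3 were called with a pseudocount of 0.1. Eif2ak2, the kinase PKR, was lower but under the minimum change, with 11.8 ± 1.77 FPKM at D16 and 19.4 ± 3.61 FPKM at D0 (-0.67 ± 0.22, adjusted p = 0.0139). Dhx58, a regulator of RIG-I, was not called (-0.46 ± 0.23, adjusted p = 0.0911).

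A group of 4 genes differed widely between replicates of D8 and of D16. Isg15, a ubiquitin-like modifier, had 22.4, 1.27 and 8.02 FPKM at D16, 25.9, 0.838 and 0.993 FPKM at D8, and 4.97, 22.8 and 15.2 FPKM at D0. Cxcl10, a chemokine that draws T cells, had 14.96, 0.283 and 2.64 FPKM at D16, 8.21, 0.307 and 0.146 FPKM at D8, and 4.003, 4.17 and 5.23 FPKM at D0. In both genes, replicate 1 was the highest library of D8 and of D16. Ifih1, the RNA sensor MDA5, had 4.35, 0.377 and 1.17 FPKM at D16 and 3.11, 0.331 and 0.304 FPKM at D8, against 1.97, 2.32 and 1.90 FPKM at D0. Rsad2, or viperin, had 3.13, 0.697 and 1.26 FPKM at D16 and 2.62, 0.320 and 0.593 FPKM at D8, against 0.224, 0.460 and 0.393 FPKM at D0. All 4 genes were at least 2 times both other libraries in replicate 1 of D8 and of D16, and none was called at D16 against D0. Rsad2 was above every D0 library in each D16 library and missed the call through the change minimum (0.89 ± 0.35, adjusted p = 0.0368), while the other 3 overlapped with D0. Of 37 further interferon-stimulated genes tested, 1 (2.70%) stood apart in this way in D16 replicate 1 and 2 (5.41%) in D8 replicate 1. Ccl5, another interferon-responsive chemokine, had 58.3, 1.16 and 11.3 FPKM at D16 and 77.7, 0.389 and 0 FPKM at D8, and was picked out after its values were seen. It also stood apart in D4 replicate 1 and in D0 replicate 3, with 7.36, 0.201 and 1.83 FPKM at D4 and 0.914, 0.901 and 2.01 FPKM at D0. The labels do not say what the number 1 stands for. The median level of the 28 interferon-stimulated genes was 2.04 in D16 replicate 1 and 1.19 and 1.73 in the other D16 libraries, and 2.07 in D8 replicate 1 and 1.19 and 1.42 in the other D8 libraries (log2(FPKM + 1) scale). The 28 include the 4 genes picked above, so these medians are no separate support. In replicate order, the presentation genes had medians of 3.93, 3.30 and 3.69 at D16 and 3.61, 3.35 and 3.30 at D8. Those of all genes tested were 3.53, 3.43 and 3.53 at D16 and 3.53, 3.33 and 3.49 at D8.

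In PN, 20 of 28 interferon-stimulated and 5 of 10 presentation genes were lower than in D0 (all genes tested, 23.9%). Ifitm2 had 18.2, 21.9 and 54.9 FPKM in PN, against 371, 548 and 389 FPKM in D0 (-3.89 ± 0.31, adjusted p = 3.15e-08). Bst2 had 3.96, 3.79 and 29.1 FPKM in PN, against 154, 201 and 132 FPKM in D0 (-4.17 ± 0.52, adjusted p = 4.14e-06). Tap2 had 1.004, 1.42 and 1.74 FPKM in PN, against 20.9, 21.8 and 21.1 FPKM in D0 (-3.23 ± 0.21, adjusted p = 3.93e-09). None of the 3 genes overlapped, and PN replicate 3 was the highest PN library in each. B2m (-2.43 ± 0.31), Psmb8 (-2.43 ± 0.22), Eif2ak2 (-2.76 ± 0.22), Irf1 (-2.26 ± 0.23), Ddx58 (-2.65 ± 0.24) and Trim25 (-1.89 ± 0.18) were lower as well. H2-D1 was not called, with 71.1, 39.96 and 63.8 FPKM in PN against 34.8, 41.6 and 49.5 FPKM in D0 (0.44 ± 0.30, adjusted p = 0.219). The median change over all genes tested was -0.12 in PN against D0, which is small beside the median of -1.57 over the 38 genes.

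Set directly against PN, the D16 cells had higher levels of 7 presentation and 9 interferon-stimulated genes (all genes tested, 19.6%). B2m (1529, 895 and 1554 FPKM at D16, 50.6, 51.4 and 113 FPKM in PN; 4.25 ± 0.31, adjusted p = 2.44e-08) and H2-D1 (3.84 ± 0.30, adjusted p = 4.86e-08; means 856 FPKM at D16 and 58.3 FPKM in PN) differed most among presentation genes, followed by H2-K1 (3.31 ± 0.41) and Tap2 (2.36 ± 0.21). Among interferon-stimulated genes Bst2 (4.27 ± 0.52), Trim25 (2.98 ± 0.18) and Ifitm2 (2.96 ± 0.31) differed most, all without overlap. The calls of Ddx58 (1.003 ± 0.24) and Rsad2 (1.11 ± 0.35) were lost under 6 of 15 and 3 of 14 alternatives. For Rsad2 these included leaving out D16 replicate 1 (0.75), and for Ddx58 leaving out D16 replicate 1 (0.91), D16 replicate 2 (0.995), PN replicate 1 (0.80) or PN replicate 2 (0.86). Lower at D16 than in PN were Ifitm3 (-2.95 ± 0.55, adjusted p = 0.000266), Psmb10 (-2.34 ± 0.21, adjusted p = 1.62e-07) and Oasl2 (-1.18 ± 0.29), the last lost without PN replicate 3 (-0.76). Without D8 replicate 1, D16 replicate 1 and PN replicate 3, 18 genes were higher and 2 lower. All 13983 genes tested then gave 2870 higher and 2225 lower, against 2745 and 2095 with all libraries.

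**Figure D5:**
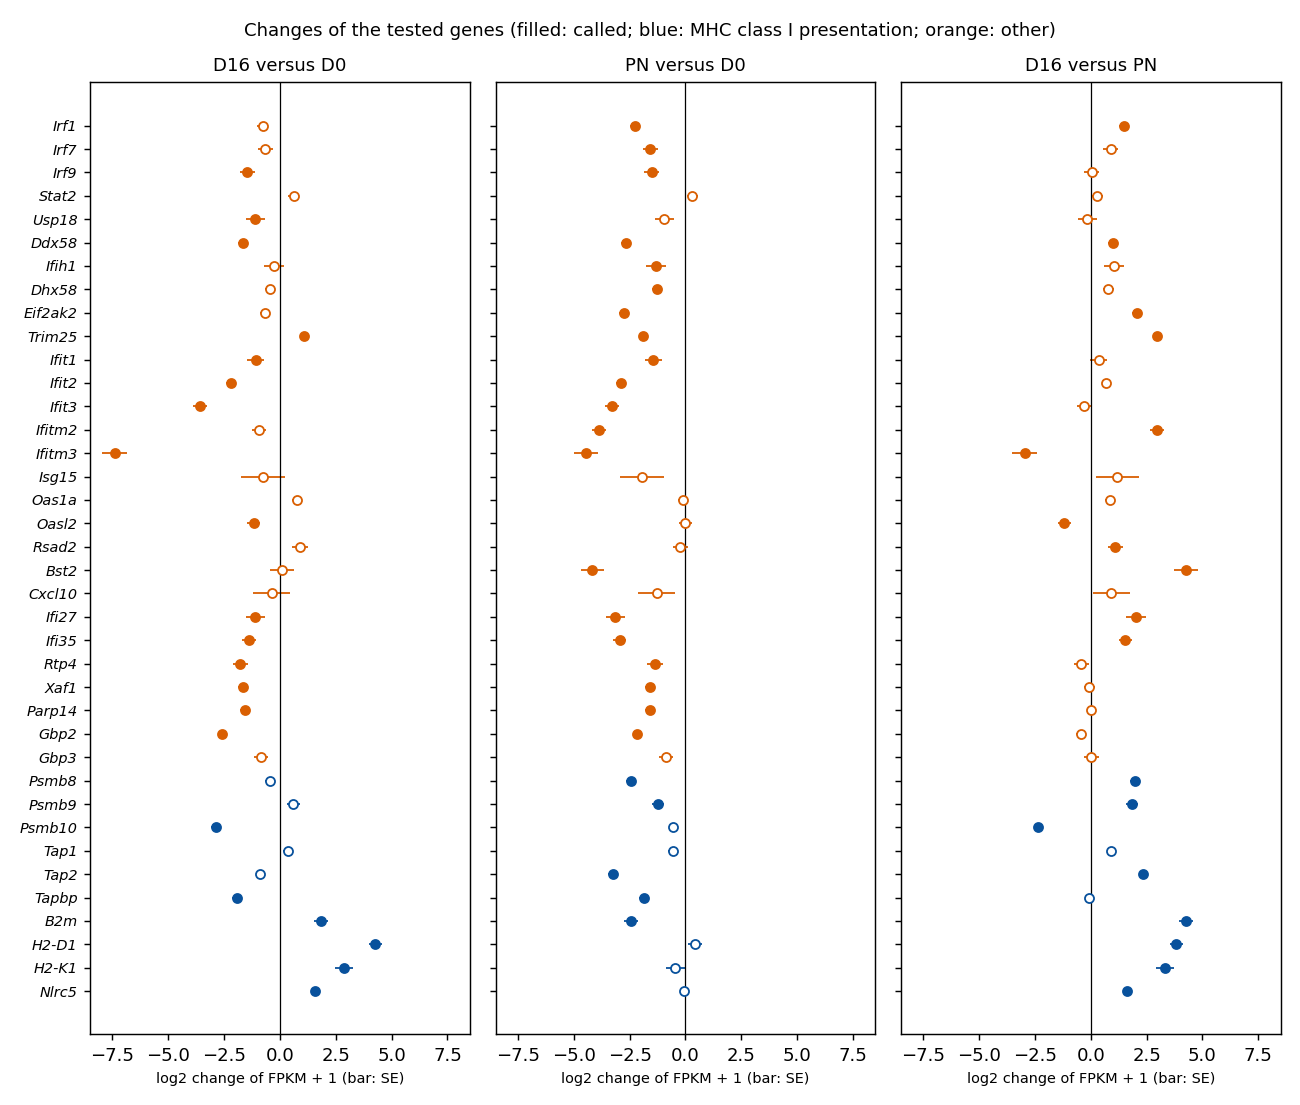
Change of each of the 38 tested genes on the log2(FPKM + 1) scale with its SE, at D16 against D0, in PN against D0 and at D16 against PN, filled where called. H2-D1, H2-K1, B2m and Nlrc5 lie right of 0 at D16 against D0 and against PN, and no gene is called right of 0 in PN against D0.

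Few of the genes changed between successive time points. Between D8 and D4, 0 genes were called higher and 1 lower (0.501% and 1.51% of all genes tested; at an unadjusted p below 0.05 limma gave 0 higher and 4 lower). The 1 gene was Ifitm3, with 6.55, 5.25 and 4.76 FPKM at D8, against 25.4, 62.1 and 35.9 FPKM at D4 (-2.61 ± 0.55, adjusted p = 0.0149). The groups did not overlap, but the call was lost with no low-value filter and without D4 replicate 2 (-2.27), D4 replicate 3 (-2.66), D8 replicate 2 (-2.58) or D8 replicate 3 (-2.52). Between D16 and D8 no gene of the 38 was called in either direction (0.0215% and 0.00715% of all genes tested). At an unadjusted p below 0.05 limma gave 1 higher and 0 lower between D16 and D8. The shares in both comparisons are by the calling rule, and none was computed for an unadjusted p.

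Genes upstream and beside the pathway were read as whole lists. In this and the following paragraphs, list counts of calls at D16 against D0 stand beside 16.6% higher and 18.7% lower over all genes tested. No such share was computed for counts at an unadjusted p. Of 12 interferon ligand genes none was tested, 11 were listed at 0 in all 15 libraries, and Ifng was listed above 0 in 1 D0 library (0.113 FPKM). Among 11 tested receptor and JAK-STAT genes, Ifngr2, a chain of the interferon gamma receptor, was higher at D16 (48.4 ± 6.25 FPKM, against 23.7 ± 3.21 FPKM at D0; 1.001 ± 0.17, adjusted p = 9.75e-05). In the same list Socs3, a feedback inhibitor of cytokine signalling, was lower (4.99 ± 3.86 FPKM at D16, 20.2 ± 7.67 FPKM at D0; -2.05 ± 0.49, adjusted p = 0.00188), and 9 were not called. Of 13 tested genes that induce interferon, 2 were higher and 5 lower, among them the RNA receptor Tlr3, with 0.642, 0.682 and 0.830 FPKM at D16 against 6.17, 7.92 and 7.81 FPKM at D0 (-2.27 ± 0.18, adjusted p = 5.56e-08), Tmem173, which encodes STING (-1.89 ± 0.28), and, higher, the factor Irf5 (1.39 ± 0.24).

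A further 37 tested interferon-stimulated genes gave 4 higher, 23 lower and 10 not called at D16 against D0 and a median change of -1.34. The count at D4 against D0 was 2 higher and 18 lower. Lgals3bp, a secreted glycoprotein, had 1.35 ± 0.234 FPKM at D16 and 20.8 ± 4.97 FPKM at D0 (-3.19 ± 0.24, adjusted p = 3.09e-08). Ifitm1, next in line to Ifitm3, had 0.408, 0 and 0 FPKM at D16, against 7.10, 8.51 and 5.37 FPKM at D0 (-2.81 ± 0.29, adjusted p = 8.73e-07). Slfn5 went the other way, with 6.61, 10.2 and 10.2 FPKM at D16 against 0.169, 0.178 and 0.223 FPKM at D0 (3.05 ± 0.21, adjusted p = 1.01e-08), and did not overlap.

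The other class I heavy chains gave 6 higher, 3 lower and 7 not called of 16 tested. The row named H2-L had 143, 46.95 and 179 FPKM at D16, against 6.57, 4.96 and 2.32 FPKM at D0 (4.34 ± 0.54, adjusted p = 5.77e-06). That symbol is not in GENCODE M21 and C57BL/6 mice are known to lack the gene, so its reads cannot be told apart from those of near-identical chains such as H2-D1. H2-Q7 was also higher (13.8 ± 8.99 FPKM at D16, 0.829 ± 0.223 FPKM at D0; 2.83 ± 0.35), while Fcgrt, the neonatal Fc receptor chain that also pairs with B2m, was lower (2.24 ± 0.545 FPKM at D16, 13.7 ± 2.35 FPKM at D0; -2.18 ± 0.24, adjusted p = 1.37e-06). Of 12 further peptide processing genes 0 were higher (1 at an unadjusted p below 0.05 in limma) and 3 lower, namely the trimming peptidase Erap1 (-2.17 ± 0.23), the peptide editor Tapbpl (-1.62 ± 0.20) and the proteasome activator subunit Psme2 (-1.60 ± 0.19). Of 14 constitutive proteasome core genes only Psmb5 was called, as given above.

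MHC class II and NF-kB genes were read beside class I. Of 7 tested class II genes 4 were higher and 1 lower, led by H2-Ab1, with 18.1, 10.2 and 18.8 FPKM at D16 against 0.648, 0.129 and 0.459 FPKM at D0 (3.53 ± 0.23, adjusted p = 5.77e-09). Ciita, the class II transactivator, stayed at or below 0.125 FPKM in all libraries, and Cd74, the invariant chain, had 1.65, 1.03 and 1.24 FPKM at D16 against 0.269, 0.0626 and 0.445 FPKM at D0 (0.88 ± 0.23, under the minimum). Of 15 tested NF-kB factors and feedback genes 2 were higher and 3 lower, near the shares over all genes tested (16.6% and 18.7%). Among them Cd40, a receptor that signals to NF-kB, had 145, 293 and 127 FPKM at D16, against 0.319, 0.270 and 0.301 FPKM at D0 (7.09 ± 0.47, adjusted p = 7.65e-09).

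Markers of other cell types moved beside these genes. All 8 astrocyte markers were lower and 6 of 8 neuron markers higher at D16 than at D0. The neuron markers summed to 749.7 to 772 FPKM at D16, against 32.6 to 75.4 FPKM at D0, and the astrocyte markers summed to 51.01 to 59.3 FPKM at D16, against 689 to 1606 FPKM at D0. Fibroblast and meningeal markers summed to 8.62 to 12.1 FPKM at D16, against 102 to 287 FPKM at D0 (1 higher and 3 lower of 5 tested), and oligodendrocyte markers to 6.93 to 8.52 FPKM at D16, against 237 to 388 FPKM at D0 (2 lower of 3 tested). Endothelial markers summed to 8.03 to 9.92 FPKM at D16, against 2.04 to 9.72 FPKM at D0 (1 higher of 2 tested, Flt1), and the 8 T and B cell markers, of which 0 were tested, to at most 0.497 FPKM in any library. In PN replicate 3, Pdgfra, a marker of fibroblasts and oligodendrocyte precursors that was picked out after its values were seen, had 4.19 FPKM, against 0.0678 and 0.0540 FPKM in the other PN libraries. In the same library the microglia markers summed to 38.2 FPKM, against 23.1 and 23.9 FPKM in the other PN libraries, and the endothelial markers to 4.97 FPKM, against 1.09 and 0.965 FPKM. The fibroblast and meningeal markers, which include Pdgfra, summed to 12.3 FPKM there, against 5.08 and 3.55 FPKM. The astrocyte markers (221 FPKM, against 144 and 267 FPKM) and oligodendrocyte markers (42.6 FPKM, against 22.7 and 45.1 FPKM) lay between the other PN libraries. The part of these markers in the changes given above was not tested.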

How the data were processed

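RNA from 15 mouse libraries (5 groups of 3) was sequenced, and the deposited FPKM table, which the authors made, lists 24346 gene symbols, built on mm10 (GRCm38) per the submitters' processing notes. The aligner, counting tool and annotation are not given in the sources used here. Groups came from the labels. Values were analysed as log2(FPKM + 1). Genes at 1 FPKM or more in at least 3 of 15 libraries (13983) entered 1 group-means model in limma 3.58.1 (R 4.3.3; trend, 10 residual degrees of freedom), with Benjamini-Hochberg adjustment over all genes tested, and calls required both an adjusted p under 0.05 and an absolute change of 1 or more. The fit was tested on simulated data. Members, lists, motifs and the rule for naming genes (all members, up to 4 called genes of each other list with the largest change, and fixed markers) were chosen with earlier results of these data known. Positions are from GENCODE M21 (GRCm38), promoters from RefSeq (GRCm38.p6), and shared words are 75-base words that also occur in transcripts of other genes. Alternatives were another pseudocount, filters, scalings, a 2-group fit, a replicate block, no change minimum and leaving out libraries. Same-numbered libraries of D8 and D4 deviated together (correlations 0.329 to 0.454, other pairs -0.497 to 0.114), and those of other comparisons did not do so throughout. The main fit did not use this pairing, and the replicate block was run only as an alternative. Some genes of the lists are not reported here. Tables and figures were made with Python 3.11.15.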

Additional observations from a re-analysis of the deposited data

Results flagged for a closer look

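Between successive time points the genes described here changed in a single case. Ifitm3 was lower at D8 than at D4 (6.55, 5.25 and 4.76 FPKM at D8, 25.4, 62.1 and 35.9 FPKM at D4), a log2 change of -2.61, lower in 3 of 3 D8 libraries, while the D4 change against D0 (-3.77) had already been called. It is given for a closer look because a call between D4 and D8 came from a test of that difference itself. The call was lost under 5 of 15 alternatives.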

How the results depend on the processing

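No change called in the main fit or in an alternative had the opposite direction in the other. Changes called in neither were not counted here, and some of these switched sign. Beside the 20, 18 and 21 genes called at D4, D8 and D16 against D0, a filter at 5 FPKM gave 12, 11 and 13, with fewer genes tested, and 7 in place of 14 interferon-stimulated genes lower at D16. The 1 interferon-stimulated gene higher at D16 against D0 became 3 with a pseudocount of 0.1, 4 with no change minimum, 2 without D8 replicate 1, D16 replicate 1 and PN replicate 3 (chosen after seeing the data), and 0 to 2 leaving out single libraries; the cause was not tested. The 1 call between D8 and D4 became 0 with no filter, 2 without those 3 libraries and 0 to 1 leaving out single libraries. With the replicate block 1 gene was called between D8 and D4, 21 at D16 against D0 and 20 in place of 19 at D16 against PN, and the block ended no call. Leaving out single libraries gave 18 to 22 genes at D4, 17 to 23 at D8 and 17 to 24 at D16 against D0, 24 to 28 in PN against D0 and 18 to 21 at D16 against PN. Read counts were not used here, so the precision of levels under about 1 FPKM is unknown, and groups of 3 libraries limit every test.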
